A study of Homo sapiens with 12 samples.

Results

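Aminoacyl-tRNA synthetases are the enzymes that join each amino acid to its own tRNA, the step that makes the genetic code work. The cytosolic set was given here by 20 genes and the mitochondrial set by 16 genes, and these 36 symbols were the whole of the group described. All 36 had an entry in all 3 expression tables, among 16489 symbols in the HCC70 table, 18215 in the MDA-MB468 table for XY018 and ATV, and 55744 in the MDA-MB468 table for GSK805. HCC70 and MDA-MB468 are human triple-negative breast cancer (TNBC) cell lines, and their RNA was sequenced after 24 h of treatment. The HCC70 libraries held vehicle, 2 doses of XY018 (1.25 and 2.5 μM), 1.25 μM atorvastatin (ATV), and the combination of 1.25 μM XY018 with 1.25 μM ATV. MDA-MB468 cells were given the same 5 treatments, and a separate pair of MDA-MB468 libraries held vehicle and GSK805 at 2.5 μM. XY018 and GSK805 are antagonists of the nuclear receptor RORγ, and ATV is a statin that inhibits HMG-CoA reductase. Each condition had 1 library, so the values carry no error between cultures of a condition, and no test was run. In such bulk libraries, fewer cells of a kind and less RNA per cell cannot be told apart.

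Most amino acids are served by separate nuclear genes for the cytosol and for the mitochondrion, and names ending in 2 mark the mitochondrial enzymes. GARS and KARS are exceptions, because each encodes the enzyme of both compartments. EPRS charges both glutamate and proline, and FARSA and FARSB are the subunits of one phenylalanine enzyme. A group of cytosolic synthetases sits in a large multi-synthetase complex held together by AIMP1, AIMP2 and EEF1E1. Many cytosolic synthetase genes belong to the amino acid response, in which ATF4, a transcription factor translated when eIF2α is phosphorylated, binds C/EBP-ATF elements near its target genes.

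The values were read as FPKM (fragment counts scaled to transcript length and to all mapped fragments), a unit taken from the use of Cufflinks and from the values, since the tables name none, and the levels set side by side between genes rest on that reading. Depth, estimated from the spacing of low values, was 9100000 to 10000000 fragments in HCC70, 17700000 to 19600000 in the MDA-MB468 libraries for XY018 and ATV, and 8250000 and 8700000 in the GSK805 pair. A log2 ratio below is log2 of treated over vehicle FPKM after adding 0.1 to both, against the vehicle of the same table. A counting interval is the 95% Clopper-Pearson interval of that ratio from the estimated fragments, and it covers counting error only. ESR1 was at 0.67 FPKM or less in both XY018 and ATV tables and at 1.77 and 5.67 FPKM in the GSK805 table, while EPCAM was between 58.8 and 153 FPKM in all 12 libraries. The basal keratin KRT5 was at 660 FPKM in HCC70 with vehicle and 355 with XY018 at 2.5 μM, and at 112 and 40.3 FPKM in MDA-MB468. KRT17 was at 379 and 230 FPKM in HCC70 and at 118 and 74.5 FPKM in MDA-MB468. KRT14 was low, at 7.32 and 5.5 FPKM in HCC70 and at 4.63 and 0.45 FPKM in MDA-MB468. These MDA-MB468 keratin levels are from the XY018 and ATV table. In the GSK805 table KRT5 was at 498 FPKM with vehicle and 318 with GSK805. KRT17 was at 110 and 84.1 FPKM there, and KRT14 at 10.6 and 6.02 FPKM. ERBB2 was between 25.3 and 57.7 FPKM in all 12 libraries. EGFR was between 45.4 and 52.5 FPKM in HCC70 and between 617 and 944 FPKM in MDA-MB468. PGR was at 0 FPKM in MDA-MB468 and had no value in HCC70. Of 7 genes that mark leukocytes, fibroblasts or endothelium, PTPRC did not exceed 1.06 FPKM, CD3E 0.14 FPKM and VWF 0.04 FPKM in any library. The sum over the listed ones was 82.4 to 105 FPKM in HCC70, most of it CD68, which is also a lysosomal gene of other cells. In MDA-MB468 it was 9.97 to 15.9 FPKM without an antagonist and 21.0 to 29.6 FPKM in the 4 libraries with one, where CD68 and COL1A1 were both higher than in the vehicle of the same table. The part of these genes and of the keratins in the results was not tested.

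All 36 synthetases were at 1 FPKM or above in all 12 libraries. Cytosolic genes were the more abundant, with a median of 66.6 FPKM against 6.78 FPKM for the mitochondrial genes in vehicle-treated HCC70 cells. In the MDA-MB468 vehicle of the XY018 and ATV table, to which the next MDA-MB468 levels refer, the medians were 87.2 and 10.8 FPKM. GARS, the glycine enzyme of both compartments, was the highest of the 36 in both of these libraries, at 204 FPKM in HCC70 and 260 FPKM in MDA-MB468. HARS, for histidine, was the lowest cytosolic gene in HCC70 at 12.5 FPKM, and DARS, for aspartate, the lowest in MDA-MB468 at 25.8 FPKM. IARS2, for isoleucine, led the mitochondrial genes with 41.6 FPKM in HCC70 and 38.0 FPKM in MDA-MB468, and MARS2 was lowest in HCC70 with 1.62 FPKM. In the MDA-MB468 vehicle of the GSK805 table the medians were 110 and 15.3 FPKM, and the order of genes differed. MARS was highest there with 665 FPKM and VARS the lowest cytosolic gene with 19.3 FPKM. CARS2 was the highest mitochondrial gene there with 94.0 FPKM.

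Cytosolic and mitochondrial enzymes could be paired for 14 amino acids, with FARS2 set against FARSA and FARSB together. In the vehicle libraries of HCC70 and of the MDA-MB468 table for XY018 and ATV, the cytosolic level was higher for 13 and 14 of 14 pairs. The median ratio was 6.19 and 5.97. In the MDA-MB468 vehicle of the GSK805 table it was higher for 13 of 14 pairs, by a median ratio of 6.81. The exception was cysteine, with CARS at 0.754 times CARS2 in HCC70 and at 0.495 times in the GSK805 vehicle. The widest gap in HCC70 was methionine, with MARS at 39.4 times MARS2.

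**Figure D1:**
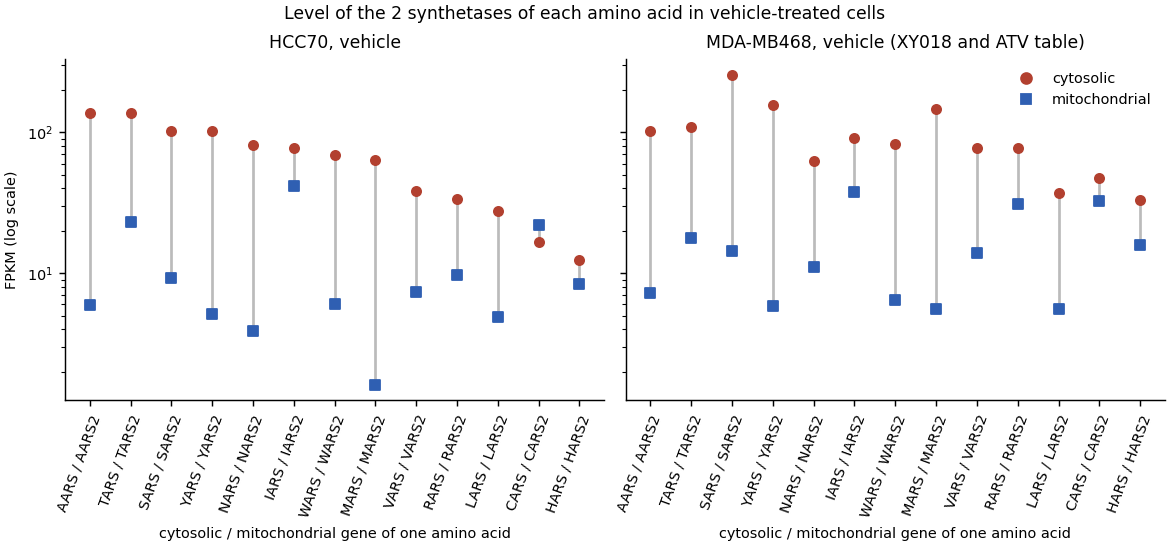
FPKM on a log scale in the vehicle libraries of HCC70 (left) and MDA-MB468 (right, the XY018 and ATV table) for the 13 pairs with 1 gene in each compartment; circles are cytosolic and squares mitochondrial genes, 1 library each. The cytosolic circle sits above the mitochondrial square in every pair except CARS and CARS2 in HCC70.

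C/EBP-ATF elements were looked for in the RefSeq promoters (GRCh38.p14) of the synthetases, from 250 bases before to 50 bases after the start site, as the 8 letters TGATGNAA on either strand. Promoters were matched for 16 cytosolic and 14 mitochondrial genes. The letters occurred in 7 of the 16 cytosolic genes (43.8%) and in 1 of the 14 mitochondrial genes (7.14%), against 3.62% of all 35116 promoters and 4.46% of all 27305 genes with one. The narrower form TGATGCAA, which is contained in it, occurred in 6 of 16 cytosolic genes, 0 of 14 mitochondrial genes and 0.866% of all promoters. Of the amino acid response genes listed further below, 3 of the 10 with a matched promoter (30%) held TGATGNAA, ASNS among them. A match describes letters in a window and shows no binding. The 8 windows are printed because the cytosolic genes that hold the letters are those compared below. Each reads along its gene's own strand with the motif in capitals, as TTGCATCA or TTTCATCA where it lies on the opposite strand, and ASNS, a classic amino acid response gene, is added for comparison.
AARS: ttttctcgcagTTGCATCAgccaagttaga
CARS: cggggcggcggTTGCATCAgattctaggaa
GARS: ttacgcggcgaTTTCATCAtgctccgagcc
IARS: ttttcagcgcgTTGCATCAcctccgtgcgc
MARS: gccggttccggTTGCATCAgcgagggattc
NARS: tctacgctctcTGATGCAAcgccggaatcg
TARS: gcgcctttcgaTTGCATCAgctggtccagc
YARS2: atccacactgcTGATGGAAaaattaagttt
ASNS: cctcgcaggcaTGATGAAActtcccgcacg

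The AARS window is at chr16:70289675-70289704 on the minus strand and the CARS window at chr11:3057407-3057436 on the minus strand. GARS lies at chr7:30594834-30594863 and MARS at chr12:57488053-57488082, both on the plus strand. IARS is at chr9:92293692-92293721 on the minus strand, NARS at chr18:57621804-57621833 on the minus strand and TARS at chr5:33440956-33440985 on the plus strand. YARS2 is at chr12:32756076-32756105 and ASNS at chr7:97872458-97872487, both on the minus strand. In CARS, GARS, IARS and MARS the motif began within 33 bases before the start site, and in NARS and TARS it began within 14 bases after it. In AARS and YARS2 it lay farther upstream, at 187 and 197 bases before the start.

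In HCC70 cells XY018 was accompanied by slightly higher levels of most cytosolic synthetases, while most mitochondrial ones lay slightly lower. At 2.5 μM the median log2 ratio was 0.24 over the 20 cytosolic genes and -0.16 over the 16 mitochondrial genes, with -0.02 over all 11721 genes tested. Of the cytosolic genes 17 of 20 lay above 0 and 3 below it, against 45% and 54.6% of all genes, and of the mitochondrial genes 4 of 16 lay above 0. The counting interval lay wholly above 0 for 15 cytosolic genes, against 14.6% of all genes with a transcript length, and wholly below 0 for 2, against 17.3%. Of the mitochondrial genes 0 had an interval above 0 and 2 had one below it. These intervals are narrower for abundant genes, and cytosolic synthetases are abundant.

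The changes were small. None of the 36 passed 1.5-fold with XY018 at 2.5 μM, where 2.62% of all genes were higher and 3.26% lower by that much. At 1.2-fold, a limit added after the values had been seen, 9 cytosolic genes were higher and 0 lower, against 10.6% and 14.4% of all genes, and 1 mitochondrial gene was higher and 3 lower.

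CARS, which charges cysteine, was the highest of the 36 at this dose. Its level was 16.6 FPKM with vehicle, 23.6 with XY018 at 1.25 μM, 24.9 at 2.5 μM, 16.4 with ATV and 23.4 with both compounds. All 3 libraries with XY018 stood above the other 2, and the log2 ratio at 2.5 μM was 0.58 with a counting interval from 0.41 to 0.76, just inside the 1.5-fold limit of 0.585. GARS went from 204 FPKM with vehicle to 270 and 295 with the lower and higher dose, 212 with ATV and 274 with both. Its log2 ratio at 2.5 μM was 0.53, with an interval from 0.48 to 0.59. TARS, for threonine, was at 136 FPKM with vehicle, 172 and 177 with XY018, 131 with ATV and 162 with both. For GARS and TARS, too, every library with XY018 lay above vehicle and ATV. The TARS ratio of 0.38 at 2.5 μM was close to those of MARS with 0.39 and WARS with 0.38, for methionine and tryptophan. WARS was at 69.3 FPKM with vehicle, 89.6 and 90.3 with XY018, 81.1 with ATV and 102 with both, so that all 4 treated libraries stood above vehicle. SARS, for serine, was at 102 FPKM with vehicle, 119 and 130 with XY018, 105 with ATV and 126 with both, a ratio of 0.35 at 2.5 μM.

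At the lower end stood FARSB, RARS and VARS, the beta subunit of the phenylalanine enzyme and the arginine and valine enzymes. FARSB was at 26.03 FPKM with vehicle, 23.7 and 22.6 with XY018, 24.6 with ATV and 19.8 with both, and its log2 ratio at 2.5 μM was -0.21 with an interval from -0.31 to -0.11. Its partner subunit FARSA was at 0.10, so the subunits of one enzyme lay on opposite sides of 0. RARS was at 33.8, 33.4, 31.8, 32.5 and 26.5 FPKM in the same order of libraries, and only the combination stood apart from vehicle by its counting interval. HARS was at 12.5, 12.98, 15.1, 11.6 and 10.8 FPKM, and only the value at 2.5 μM had an interval that left out 0, from 0.02 to 0.53.

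Among the mitochondrial genes of HCC70 cells PARS2, for proline, was highest at 2.5 μM with a log2 ratio of 0.29, and NARS2, for asparagine, lowest with -0.44. Both intervals held 0, and in the vehicle library these genes rest on an estimated 94 fragments for PARS2 and 93 for NARS2. LARS2, the leucine enzyme, was at 4.87 FPKM with vehicle, 3.68 and 3.61 with XY018, 4.08 with ATV and 3.84 with both. Vehicle was the highest of the 5 libraries, and the log2 ratio at 2.5 μM was -0.42 with an interval from -0.73 to -0.14. CARS2, at 22.0, 17.6, 18.4, 18.5 and 16.8 FPKM in the same order, was also highest with vehicle. PARS2 was at 4.2, 5.59, 5.15, 4.99 and 6.50 FPKM, lowest with vehicle. The 4 mitochondrial genes with the widest range of ratios over all comparisons are given in the same order of libraries. WARS2, for tryptophan, was at 6.02, 6.08, 5.77, 5.57 and 5.26 FPKM, and AARS2, for alanine, at 5.91, 5.40, 5.16, 5.48 and 6.05 FPKM. MARS2, for methionine, was at 1.62, 1.98, 1.66, 1.83 and 1.73 FPKM. All intervals of these 3 genes held 0. EARS2, for glutamate, was at 8.67, 7.24, 7.90, 8.36 and 8.22 FPKM, and only its value at 1.25 μM had an interval that left out 0. Cysteine was therefore the amino acid with the widest split at 2.5 μM, its cytosolic ratio lying 0.84 above its mitochondrial one. The cytosolic ratio was the higher one for 13 of 14 amino acids at this dose. It was the higher one for 12 of 14 at 1.25 μM and with both compounds, and for 8 of 14 with ATV alone.

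The lower dose gave much the same picture against the same vehicle. At 1.25 μM the medians were 0.19 for cytosolic and -0.11 for mitochondrial genes, with -0.01 over all genes, and 15 of 20 and 5 of 16 lay above 0, against 47.1% of all genes above and 52.6% below. Counting intervals lay above 0 for 14 and below 0 for 1 of the cytosolic genes, against 12.9% and 13.4% of all genes. CARS was again highest with 0.51 and FARSB lowest with -0.14 in the cytosolic set, and PARS2 with 0.40 and LARS2 with -0.39 marked the ends of the mitochondrial set. No synthetase passed 1.5-fold, against 1.93% of all genes higher and 2.64% lower. At 1.2-fold 6 cytosolic genes were higher and 0 lower, against 9.42% and 11.9%, with 2 higher and 3 lower among the mitochondrial genes. Set directly against the lower dose, 2.5 μM had a cytosolic median of 0.06 and a mitochondrial median of -0.06. The largest cytosolic step was HARS with 0.21, and no cytosolic gene moved by 1.2-fold between the doses, against 6.79% of all genes higher and 8.11% lower. Of the mitochondrial genes VARS2 was higher by that much, with a log2 ratio of 0.28, and YARS2 and RARS2 were lower, with -0.44 and -0.40.

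ATV alone left the synthetases of HCC70 cells near vehicle. The cytosolic median was 0.01 and the mitochondrial median -0.07, and 11 of 20 and 6 of 16 lay above 0, against 48.8% of all genes above and 50.9% below. Intervals lay above 0 for 4 and below 0 for 1 of the cytosolic genes, against 15.4% and 15.2%. No synthetase passed 1.5-fold or 1.2-fold, against 2.22% and 12.7% of all genes higher and 1.32% and 9.81% lower. WARS, known as an interferon-induced gene, was the highest cytosolic gene with 0.23, an interval from 0.14 to 0.32, and NARS the lowest with -0.11. PARS2 with 0.24 and CARS2 with -0.25 were the ends of the mitochondrial set.

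With XY018 and ATV together the ratios reached farther on both sides of 0 than with XY018 alone at 1.25 μM, from -0.40 to 0.56 in the cytosolic set and from -0.54 to 0.62 in the mitochondrial set. The medians were 0.14 for cytosolic and -0.13 for mitochondrial genes, and 15 of 20 and 5 of 16 lay above 0, against 47.9% of all genes above and 51.9% below. Intervals lay above 0 for 11 and below 0 for 4 of the cytosolic genes, against 19.6% and 21.9%, and above 0 for 1 and below 0 for 5 of the mitochondrial genes. At 1.2-fold 7 cytosolic genes were higher and 3 lower, against 17.1% and 16.6% of all genes, and 1 mitochondrial gene was higher and 6 lower. PARS2, at 4.2 FPKM with vehicle and 6.50 with both, was the only synthetase past 1.5-fold, with a log2 ratio of 0.62 and an interval from 0.25 to 1.02, where 4.38% of all genes were higher and 2.93% lower. WARS was the highest cytosolic gene with 0.56, FARSB the lowest with -0.40, and NARS2 the lowest mitochondrial gene with -0.54. Against XY018 alone at 1.25 μM, the combination had medians of -0.01 and -0.12, and 9 of 20 and 7 of 16 genes lay above 0, against 49% of all genes. Against ATV alone the medians were 0.16 and -0.08, and 15 of 20 and 4 of 16 genes lay above 0, against 47% of all genes.

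Over the 3 HCC70 libraries that held XY018, 13 of 20 cytosolic genes lay above the shared vehicle each time and 3 below it, against 25% of all genes above and 31.2% below in all 3. For AARS, CARS, EPRS, GARS, IARS, MARS, SARS, TARS, WARS and YARS the counting interval left out 0 on the upper side in all 3, and for FARSB on the lower side, against 5.66% and 5.86% of all genes. Of the 16 mitochondrial genes 7 were below in all 3 and 2, MARS2 and PARS2, above. These 3 ratios share 1 vehicle library, so they are not independent of each other.

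**Figure D2:**
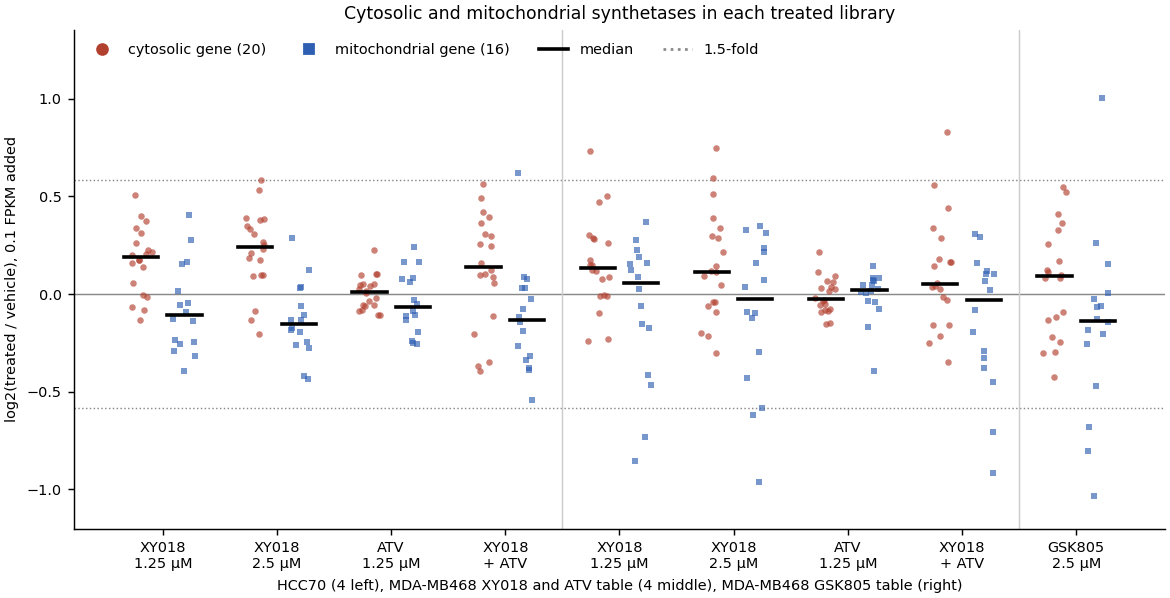
Log2 ratio of treated to vehicle FPKM (0.1 added) for each of the 20 cytosolic (circles) and 16 mitochondrial (squares) genes in 9 treated libraries, with horizontal spread only for legibility; black bars are medians and dotted lines 1.5-fold. In HCC70 with XY018 at 2.5 μM the cytosolic median is 0.24 and the mitochondrial one -0.16, and with ATV alone both sets lie close to 0.

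In MDA-MB468 cells the cytosolic genes did not move as one set, and single members went farther than in HCC70. With XY018 at 2.5 μM the medians were 0.11 for cytosolic and -0.03 for mitochondrial genes, with 0.00 over all 11919 genes tested. Above 0 lay 13 of 20 cytosolic and 8 of 16 mitochondrial genes, against 50.1% of all genes above and 49.7% below. Counting intervals lay above 0 for 12 and below 0 for 5 cytosolic genes, against 36.5% and 37.1% of all genes, and for 5 and 5 mitochondrial genes. By 1.5-fold 2 cytosolic genes were higher and 2 mitochondrial genes lower, against 14.1% of all genes higher and 14.5% lower. At 1.2-fold 7 cytosolic genes were higher and 1 lower, and 3 mitochondrial genes were higher and 5 lower, against 30.3% and 30.5%. By either limit these counts were near or below the share of all genes.

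WARS and SARS were the cytosolic genes past 1.5-fold. WARS was at 83.3 FPKM with vehicle, 138 and 140 with XY018 at 1.25 and 2.5 μM, 96.8 with ATV and 148 with both. Its log2 ratio at 2.5 μM was 0.75, with an interval from 0.69 to 0.80. SARS went from 257 FPKM to 364 and 388 with XY018, 262 with ATV and 378 with both, and its ratio at 2.5 μM was 0.59, with an interval from 0.55 to 0.63. In both genes the 3 libraries with XY018 lay well above the other 2. RARS followed the same course at 77.3 FPKM with vehicle, 107 and 110 with XY018, 78.9 with ATV and 105 with both, a ratio of 0.51 at 2.5 μM. RARS was thus higher by 0.51 here where it was at -0.09 in HCC70.

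TARS, HARS and GARS lay on the other side. TARS was at 109 FPKM with vehicle, 91.9 and 88.1 with XY018, 104 with ATV and 97.2 with both, a ratio of -0.30 at 2.5 μM with an interval from -0.36 to -0.24. GARS was at 260, 243, 227, 234 and 218 FPKM in that order, with a ratio of -0.20 at 2.5 μM and an interval from -0.24 to -0.16. HARS was at 33.3, 28.4, 28.6, 31.6 and 26.1 FPKM, with a ratio of -0.22 at 2.5 μM. Vehicle was the highest of the 5 libraries for all 3 genes. CARS, the leading gene of HCC70, was at 47.3, 51.5, 50.5, 46.3 and 49.1 FPKM, and its ratio at 2.5 μM was 0.09. FARSB, lower in HCC70, was at 29.9, 33.1, 34.8, 32.4 and 30.7 FPKM, with a ratio of 0.22 at 2.5 μM.

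The largest difference of any synthetase with XY018 was that of LARS2 in MDA-MB468 cells. LARS2 was at 5.55 FPKM with vehicle, 3.02 and 2.80 with XY018, 4.93 with ATV and 2.89 with both. Its ratio at 2.5 μM was -0.96, with an interval from -1.22 to -0.76, and the 3 libraries with XY018 lay below both others. MARS2, for methionine, was at 5.57 FPKM with vehicle, 3.32 and 3.59 with XY018, 5.83 with ATV and 4.05 with both, a ratio of -0.62 at 2.5 μM with an interval from -0.90 to -0.37. AARS2, the alanine enzyme, was at 7.23, 5.2, 4.80, 6.85 and 4.39 FPKM in that order, and its ratio of -0.58 at 2.5 μM was just inside 1.5-fold. LARS2 and MARS2 were the mitochondrial genes past 1.5-fold at 2.5 μM. YARS2, for tyrosine, had a ratio of -0.43 and IARS2 one of -0.30. PARS2 was the highest mitochondrial gene with 0.35, and RARS2 and VARS2 followed with 0.33 and 0.31. PARS2 was at 8.39 FPKM with vehicle, 10.2 and 10.7 with XY018, 8.18 with ATV and 9.12 with both, and CARS2 was at 32.7, 29.4, 30.5, 33.3 and 26.7 FPKM in that order. EARS2, for glutamate, was at 8.29, 9.24, 8.51, 8.35 and 8.91 FPKM, and WARS2, for tryptophan, at 6.49, 6.22, 6.08, 6.57 and 6.97 FPKM, both within 1.2-fold of vehicle in every library.

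The cytosolic ratio exceeded the mitochondrial one for 11 of 14 amino acids at 2.5 μM. Leucine was split most widely, by 0.92, with LARS at -0.04 and LARS2 at -0.96. Histidine, threonine and valine went the other way. The cytosolic ratio was also the higher one for 11 of 14 at 1.25 μM and with both compounds. With ATV alone it was the higher one for 4 of 14, and with GSK805 for 10 of 14. HARS and HARS2 lie head to head on chromosome 5 with promoter windows that overlap by 184 bases, and their coding sequences are alike. Whether the counting divided reads between HARS and HARS2 was not tested.

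**Figure D3:**
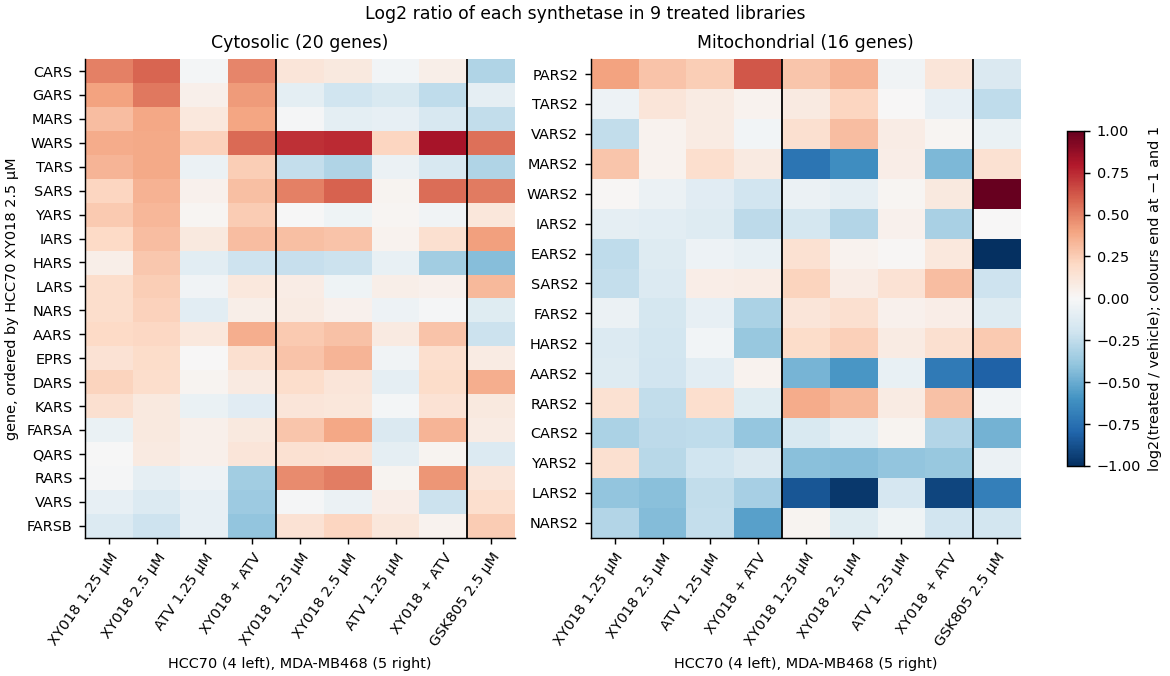
Log2 ratio of treated to vehicle FPKM of the cytosolic (left) and mitochondrial (right) synthetases, with rows ordered within each panel by the HCC70 ratio at 2.5 μM of XY018, in the 4 HCC70 and 5 MDA-MB468 treated libraries (columns), red higher and blue lower than vehicle, with colours ending at -1 and 1. GARS, MARS and TARS are red with XY018 in HCC70 and pale or blue in MDA-MB468, WARS and SARS are red in both, and LARS2 is blue in both.

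At 1.25 μM the medians in MDA-MB468 were 0.14 for cytosolic and 0.06 for mitochondrial genes, and 14 of 20 and 9 of 16 lay above 0, against 51.1% of all genes above and 48.7% below. Intervals lay above 0 for 14 and below 0 for 3 of the cytosolic genes and for 6 and 6 of the mitochondrial genes, against 34.6% and 33.2% of all genes. WARS with 0.73 was the only cytosolic gene past 1.5-fold, and LARS2 with -0.86 and MARS2 with -0.73 the only mitochondrial ones, against 9.73% of all genes higher and 8.38% lower. TARS with -0.24 was the lowest cytosolic gene and RARS2 with 0.37 the highest mitochondrial one. At 1.2-fold 6 cytosolic genes were higher and 0 lower, against 26.1% and 24.4% of all genes, and 2 mitochondrial genes were higher and 4 lower. The step from 1.25 to 2.5 μM was small, with medians of -0.01 and -0.02, and no synthetase moved by 1.2-fold, against 7.04% of all genes higher and 10.5% lower.

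ATV alone gave medians of -0.02 for cytosolic and 0.02 for mitochondrial genes, with 9 of 20 and 11 of 16 above 0, against 47.3% of all genes above and 52.2% below. Intervals lay above 0 for 4 and below 0 for 5 of the cytosolic genes, against 13.1% and 14.8%. No synthetase passed 1.5-fold, against 1.37% of all genes higher and 0.803% lower. WARS was again the highest cytosolic gene, with 0.22 and an interval from 0.16 to 0.28, and GARS the lowest with -0.15. In the mitochondrial set SARS2 was highest with 0.15, and YARS2 lowest with -0.39 and an interval from -0.69 to -0.12. YARS2 was the only synthetase beyond 1.2-fold, against 6.48% of all genes higher and 5.06% lower.

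XY018 and ATV together gave medians of 0.05 for cytosolic and -0.03 for mitochondrial genes, and 13 of 20 and 8 of 16 lay above 0, against 50.4% of all genes above and 49.5% below. Intervals lay above 0 for 9 and below 0 for 5 of the cytosolic genes and for 3 and 7 of the mitochondrial genes, against 36.7% and 36.3% of all genes. WARS reached 0.83 with an interval from 0.77 to 0.88 and was the only cytosolic gene past 1.5-fold, and LARS2 with -0.92 and AARS2 with -0.71 were the only mitochondrial ones, against 13.1% of all genes higher and 12.2% lower. HARS with -0.35 was the lowest cytosolic gene and SARS2 with 0.31 the highest mitochondrial one. At 1.2-fold 5 cytosolic genes were higher and 1 lower, against 29.3% and 28.4% of all genes, and 2 mitochondrial genes were higher and 6 lower. Against XY018 alone the combination had medians of -0.05 and -0.07. Against ATV alone it had medians of 0.10 and -0.02.

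Over the 3 MDA-MB468 libraries with XY018, 12 cytosolic genes lay above their shared vehicle each time and 6 below it, against 41.8% of all genes above and 41.8% below in all 3. By counting interval AARS, DARS, EPRS, FARSA, IARS, KARS, RARS, SARS and WARS were above in all 3, and GARS, HARS and TARS below. Of the mitochondrial genes HARS2 and RARS2 were above, and AARS2, IARS2, LARS2, MARS2 and YARS2 below, by interval in all 3, against 28.2% of all genes above and 28.8% below.

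**Figure D4:**
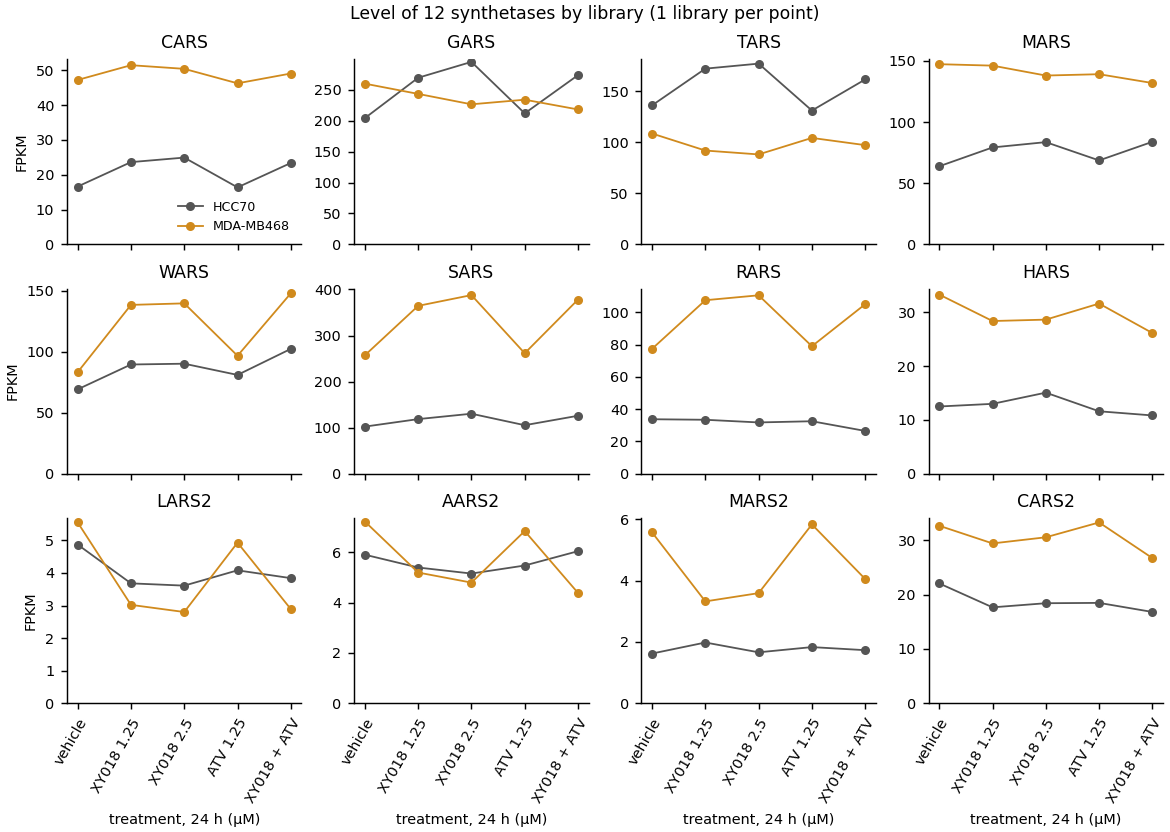
FPKM of 12 synthetases in the 5 HCC70 libraries (grey) and the 5 MDA-MB468 libraries of the XY018 and ATV table (orange), 1 library per point, with each vertical axis starting at 0; lines only guide the eye. GARS and TARS are higher with XY018 in HCC70 and lower in MDA-MB468, and LARS2 is lower with XY018 in both lines. WARS, SARS, MARS, LARS2 and CARS2 were chosen for the plot after their values had been seen.

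Set beside each other, the lines shared the direction of 7 cytosolic genes in all 3 XY018 libraries, AARS, CARS, DARS, EPRS, IARS, SARS and WARS, all above vehicle, and of VARS, below it. GARS, MARS, TARS and YARS were above in HCC70 and below in MDA-MB468, and FARSB and RARS were the reverse. Among mitochondrial genes PARS2 was above in both lines, and CARS2, IARS2 and LARS2 were below in both. Of all genes, 25% were above and 31.2% below in all 3 libraries in HCC70, and 41.8% above and 41.8% below in MDA-MB468. The share of all genes with the same direction in all 3 libraries of both lines was not computed. At 2.5 μM 11 of 20 cytosolic genes were above 0 in both lines and 1 below in both, so 12 of 20 had the same direction, against 53.8% of the 10856 genes tested in both. For mitochondrial genes the share was 62.5%. At 1.25 μM it was 37.5% for mitochondrial genes against 50.7% of all genes, and with both compounds 43.8% against 58.0%. For mitochondrial genes the share was thus above that of all genes at one dose and below it in the other comparisons.

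The cytosolic genes with TGATGNAA in the promoter window, whose sequences are printed above, had a higher median than the rest in HCC70 and a lower one in MDA-MB468. In HCC70 with XY018 at 2.5 μM all 7 lay above 0 with intervals above 0, from 0.21 for AARS to 0.58 for CARS, with a median of 0.38. The 9 cytosolic genes whose promoters lacked the letters had a median of 0.10, from -0.21 for FARSB to 0.38 for WARS. Of these 9 genes 7 lay above 0 and 5 had an interval above 0. Of all genes 45% lay above 0, and 14.6% of those with a transcript length had an interval above 0. At 1.25 μM the medians were 0.31 and 0.06, and with both compounds 0.36 and 0.10. With ATV alone they were 0.05 and 0.01. In MDA-MB468 the order was the other way round, with medians of 0.04 for the 7 genes and 0.34 for the 9 others at 2.5 μM of XY018. It was 0.08 and 0.28 at 1.25 μM, and -0.01 and 0.17 with both compounds. At 2.5 μM 4 of the 7 genes and 8 of the 9 others lay above 0 in this line, against 50.1% of all genes. YARS2, the mitochondrial gene with the letters, was at -0.27 in HCC70 and -0.43 in MDA-MB468 at 2.5 μM. The motif was picked with earlier results of these data known, so these medians are a description and carry no test.

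**Figure D5:**
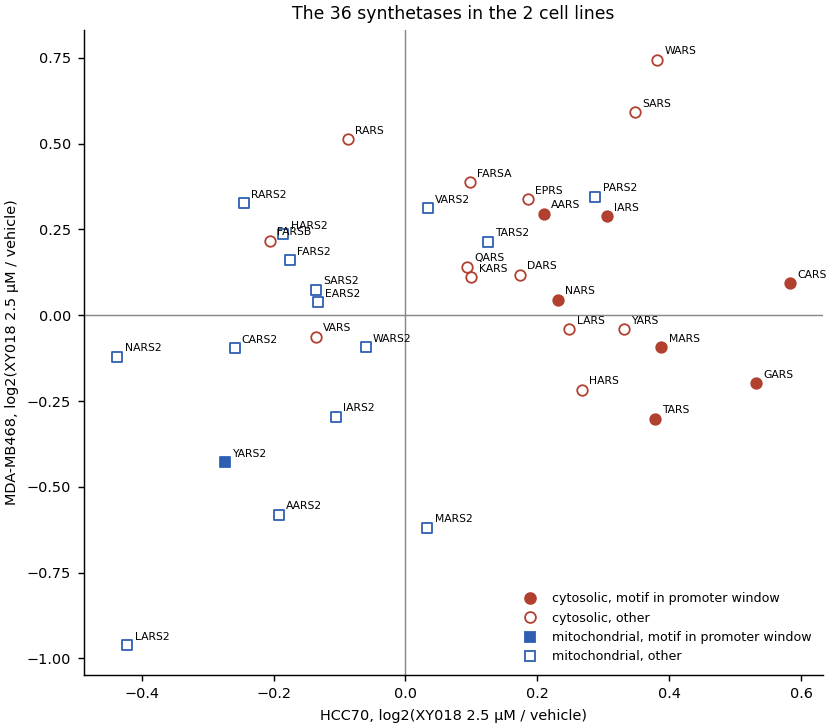
Log2 ratio with XY018 at 2.5 μM in HCC70 (horizontal) and in MDA-MB468 (vertical) for the 36 synthetases; circles are cytosolic, squares mitochondrial, filled symbols have TGATGNAA in a promoter window, and open symbols include the genes with no matched promoter. The 7 filled circles lie right of 0, from 0.21 to 0.58 in HCC70, while in MDA-MB468 they run from -0.30 for TARS to 0.30 for AARS.

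Other groupings of the cytosolic enzymes separated them less. The 8 members of the multi-synthetase complex had a median of 0.18 in HCC70 and 0.13 in MDA-MB468 at 2.5 μM of XY018, and the 12 free enzymes 0.30 and 0.07. Class I and class II, the structural families of synthetases, had medians of 0.28 and 0.22 in HCC70 and 0.12 and 0.11 in MDA-MB468. The 3 scaffold genes of the complex, AIMP1, AIMP2 and EEF1E1, lay between -0.18 and 0.19 at this dose in both lines, and none of them passed 1.2-fold. Of all genes, 10.6% were higher and 14.4% lower by that much in HCC70, and 30.3% and 30.5% in MDA-MB468.

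GSK805, the other antagonist, was measured in MDA-MB468 with a vehicle of its own. At 2.5 μM the medians were 0.09 for cytosolic and -0.14 for mitochondrial genes, with 0.01 over all 19951 genes tested. Above 0 lay 12 of 20 and 4 of 16 genes, against 50.5% of all genes above and 49.5% below. Counting intervals lay above 0 for 11 and below 0 for 8 cytosolic genes, against 28.1% and 28.4%. No cytosolic gene passed 1.5-fold, and 1 mitochondrial gene was higher and 3 were lower, against 17.6% and 16.6% of all genes. At 1.2-fold 5 cytosolic genes were higher and 3 lower, against 32.6% and 31.4% of all genes, and 2 mitochondrial genes were higher and 4 lower.

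WARS and SARS again led the cytosolic set with GSK805. WARS was at 103 FPKM with vehicle and 150 with GSK805, a ratio of 0.55 with an interval from 0.46 to 0.64. SARS was at 362 and 519 FPKM, a ratio of 0.52. IARS followed with 0.41. HARS was lowest, at 50.3 and 37.5 FPKM with a ratio of -0.42, and TARS, at 169 and 137 FPKM, and CARS, at 46.5 and 37.8 FPKM, both had a ratio of -0.30. GARS was at 243 and 229 FPKM, FARSB at 24.9 and 29.7 and RARS at 90.3 and 98.4. HARS, TARS and GARS were thus lower and WARS, SARS, FARSB and RARS higher with either antagonist in this line, while CARS was at 0.09 with XY018 at 2.5 μM and at -0.30 with GSK805. The antagonist libraries came from separately normalized tables, so the values are set side by side and their difference was not tested.

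Among the mitochondrial genes WARS2 went from 7.59 FPKM with vehicle to 15.3 with GSK805, a ratio of 1.00 with an interval from 0.71 to 1.31. EARS2 went from 44.6 to 21.7 FPKM, a ratio of -1.03 with an interval from -1.31 to -0.78. These were the largest differences of any synthetase, and neither gene passed 1.2-fold with XY018 at 2.5 μM, where WARS2 was at -0.09 and EARS2 at 0.04. EARS2 was also at 44.6 FPKM in this vehicle against 8.29 FPKM in the other MDA-MB468 vehicle. AARS2 was at 6.99 and 3.96 FPKM, a ratio of -0.80, and LARS2 at 9.05 and 5.604 FPKM, a ratio of -0.68, so both were below their vehicle with either antagonist. MARS2 was at 4.34 and 4.83 FPKM and PARS2 at 6.88 and 6.21 FPKM, and both intervals held 0. CARS2 was at 93.98 and 67.8 FPKM, a ratio of -0.47. In total 9 of 20 cytosolic genes were above 0 and 4 below 0 with both XY018 at 2.5 μM and GSK805, so 13 of 20 had the same direction, against 64.0% of the 11322 genes tested in both. Of the mitochondrial genes 1 was above and 5 were below 0 in both, which is 37.5% in the same direction. The cytosolic genes with TGATGNAA had a median of -0.22 with GSK805, and those without it 0.10.

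Genes that act beside the synthetases were described by 4 lists, and those of the amino acid response had a high median in HCC70 and one near 0 in MDA-MB468 with XY018. The 11 genes of the amino acid response list hold the factor ATF4, the stress genes DDIT3, TRIB3, CHAC1 and SESN2, the asparagine and serine enzymes ASNS, PSAT1 and PHGDH, and the amino acid transporters SLC7A11, SLC7A5 and SLC3A2. In HCC70 at 2.5 μM all 11 lay above 0 with a median of 0.55, and 5 of them passed 1.5-fold, against 45% of all genes above 0 and 2.62% past 1.5-fold. ASNS was at 64.5 FPKM with vehicle, 98.3 and 114 with XY018, 79.6 with ATV and 135 with both, so that all 4 treated libraries stood above vehicle. ATF4 was at 295 FPKM with vehicle and 362 at 2.5 μM, a ratio of 0.29 with an interval from 0.23 to 0.35. At 1.25 μM the median was 0.46 with 3 genes past 1.5-fold, against 1.93% of all genes, and with both compounds it was 0.64 with 7 past it, against 4.38%.

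With ATV alone in HCC70 all 11 also lay above 0, against 48.8% of all genes. Their median was 0.30, although the cytosolic synthetases had a median of 0.01 there. In MDA-MB468 at 2.5 μM the list was divided, with a median of -0.01. Of its genes 5 lay above and 6 below 0, against 50.1% and 49.7% of all genes. DDIT3 was at 17.5 FPKM with vehicle and 86.7 at 2.5 μM, a ratio of 2.30, and TRIB3 had a ratio of 0.87. PSAT1 was at 151 and 73.8 FPKM, a ratio of -1.03, ASNS had a ratio of -0.36 and ATF4 one of -0.17. With GSK805 the median was 0.33, with DDIT3 at 1.62 and ATF4 at -0.12.

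XPOT, the factor that exports tRNA from the nucleus, was higher with XY018 in both lines, at 44.4 FPKM with vehicle and 55.3 at 2.5 μM in HCC70 and at 66.1 and 90.2 FPKM in MDA-MB468. The ratios were 0.31 and 0.45. The list of tRNA handling and elongation genes that XPOT belongs to also holds AARSD1, DTD1, EEF1B2, EEF1D, EEF1G and EEF2. At 2.5 μM of XY018 it had 4 of 7 above 0 in HCC70, against 45% of all genes, with a median of 0.04. In MDA-MB468 it had 7 of 7 above 0, against 50.1% of all genes, with a median of 0.37. No member of the list passed 1.5-fold in either line at 2.5 μM. Of all genes, 2.62% were higher and 3.26% lower by that much in HCC70, and 14.1% and 14.5% in MDA-MB468.

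The 10 partners of the mitochondrial enzymes were near 0 in HCC70 at 2.5 μM, with a median of 0.00. Above 0 lay 5 and below it 5, against 45% and 54.6% of all genes. They include QRSL1, GATB and GATC, which make mitochondrial glutaminyl-tRNA by amidation, the formylation enzyme MTFMT, and the mitochondrial translation factors TUFM, TSFM, GFM1, GFM2, MTIF2 and MTIF3. In MDA-MB468 4 were above and 6 below 0 with a median of -0.10, against 50.1% and 49.7% of all genes. MTFMT was lowest there, at 6.23 FPKM with vehicle and 4.38 at 2.5 μM, a ratio of -0.50, and TSFM had a ratio of -0.37. With GSK805 MTFMT was instead at 14.97 and 25.5 FPKM, a ratio of 0.76, and TUFM was lowest with -0.42.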

How the data were processed

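RNA-seq was analysed for 12 libraries, 1 per condition, grouped by the submitters' labels. Per the methods and the submitters' processing notes, the authors prepared libraries from total RNA with a TruSeq kit and used BWA, Bowtie and Cufflinks with GRCh37. The deposited tables name no unit, and FPKM was inferred from the methods and the values, scaled by the authors separately in each of the 3 tables. No columns of comparisons made by the authors are in them. The GSK805 table lists more genes, so each treated library was compared only with the vehicle of its own table.

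Log2 ratios were computed with 0.1 FPKM added, for genes at 1 FPKM or above in a library compared, keeping the more abundant entry of a duplicated symbol. With no replicates no test was run. Counts used 1.5-fold, and 1.2-fold was added after seeing the data. Fragments were estimated from FPKM, MANE transcript lengths (GENCODE, GRCh37) and a depth read from the spacing of low values, and are approximate; for GSK805 they were scaled down where that vehicle exceeded the other MDA-MB468 vehicle. The share of genes with a counting interval on one side of 0 is over genes with such a length. Scripts used Python 3.11.15, pandas 2.3.3, numpy 2.4.6 and scipy 1.17.1 and were tested on simulated data. FPKM in every library were given for the 6 cytosolic and 4 mitochondrial genes with the largest range over the 9 ratios, by rule, and for WARS, SARS, LARS2, CARS2, PARS2 and list genes chosen after their values were seen; the highest and lowest of each set were named in each comparison. The members, lists and motif were chosen with earlier results of these data known. Alternatives were other pseudocounts, filters, centring, thresholds, entries and vehicle, and leaving out GARS and KARS.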

Additional observations from a re-analysis of the deposited data

Results flagged for a closer look

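GARS and TARS lay on opposite sides of vehicle in the cell lines in every library that held XY018, each with a counting interval that left out 0. For GARS the log2 ratios in HCC70 were 0.40 at 1.25 μM, 0.53 at 2.5 μM and 0.42 with ATV added, and in MDA-MB468 they were -0.095, -0.20 and -0.25. For TARS they were 0.34, 0.38 and 0.25 in HCC70 and -0.24, -0.30 and -0.16 in MDA-MB468. By interval in all 3 libraries, 5.66% of all genes were above vehicle in HCC70 and 28.8% below it in MDA-MB468. The share of all genes that met both conditions was not computed, and the intervals are narrower for abundant genes such as these. The difference between the lines was not tested, because no condition has a replicate, and the 3 ratios of a line share 1 vehicle library. By direction alone, without regard to the intervals, MARS, YARS and MARS2 were also above in HCC70 and below in MDA-MB468, and FARSB, RARS, EARS2, FARS2 and HARS2 the reverse. Of all genes, 25% were above and 31.2% below in all 3 libraries in HCC70, and 41.8% above and 41.8% below in MDA-MB468.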

How the results depend on the processing

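No paired analysis was possible because the groups compared share fewer than 2 replicate numbers, with 1 library per condition, so that no replicate could be left out either. A fit over the 10 XY018 and ATV libraries with the cell line as a block was not run. Of the 18 medians, 17 kept their sign under every alternative run. With GSK805 set against the vehicle of the other MDA-MB468 table, the cytosolic median was 0.42 with 8 genes higher and 1 lower by 1.5-fold, and the mitochondrial median turned to 0.25 with 5 higher and 2 lower, but the median of all genes was 0.58 there, with 49.7% higher and 9.41% lower. CARS sits at the limit, so 1 cytosolic gene passed 1.5-fold in HCC70 at 2.5 μM with a pseudocount of 0.01 or with centring on all genes. With a pseudocount of 1, 0 mitochondrial genes were higher in HCC70 with both compounds and 1 was lower in MDA-MB468 at 2.5 μM. At 2-fold all counts were 0 except 1 mitochondrial gene higher and 1 lower with GSK805. A filter at 5 FPKM, summed entries and leaving out GARS and KARS moved no value beyond its counting error or a factor of 1.5. Dropping the filter at 1 FPKM could move none, because all 36 genes were at or above it in every library. At 1.2-fold the counts of cytosolic genes higher were 6, 9 and 7 in HCC70 (1.25 μM, 2.5 μM, both compounds) and 6, 7, 5 and 5 in MDA-MB468 (the same and GSK805), with 3 lower in HCC70 with both and 1, 1 and 3 lower in MDA-MB468 at 2.5 μM, with both and with GSK805. Mitochondrial genes higher were 2 and 1 in HCC70 at the lower and higher dose and 2, 3, 2 and 2 in MDA-MB468, and lower were 3, 3 and 6 in HCC70 and 4, 5 and 6 in MDA-MB468, with 1 for ATV. Depth limits the mitochondrial genes most, with an estimated 47 fragments for MARS2 in the HCC70 vehicle against 4739 for GARS.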

Other observations

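The 2 vehicle libraries of MDA-MB468, from separately normalized tables, gave different levels for many synthetases. Of the 36 genes 15 differed by 1.5-fold or more, 13 of them higher and 2 lower in the GSK805 table, with a median log2 ratio of 0.35. EARS2 was the highest, with a log2 ratio of 2.42, and VARS the lowest, with -2.01. MARS was at 665 FPKM in the vehicle of the GSK805 table and at 147 FPKM in the other, and CARS, GARS and RARS were near each other, at 46.5 and 47.3, 243 and 260, and 90.3 and 77.3 FPKM. The share of all genes that differed between the vehicles was not computed, so the counts are not shown to be particular to synthetases. The GSK805 library set against the other vehicle had a median of 0.58 over all genes, with 49.7% higher and 9.41% lower by 1.5-fold.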
